A study of Mus musculus with 44 samples.

Results

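The genes of collagens, laminins, thrombospondins, lysyl oxidases and 3 further matrix glycoproteins were followed through every table of a mouse medulloblastoma study. Members were taken by name alone: genes named Col with a digit, Lama, Lamb or Lamc with a digit, Thbs or Loxl, together with Lox, Fn1, Sparc and Tnc, leaving out antisense and clone names. The rule found 68 of the 23413 gene names in the RNA tables. All 68 were among the 16078 genes of the tumor RNA table, 49 among the 15926 genes of the table of treated samples, 36 among the 17546 genes of the GTML_SOX9GFP single cells and 35 among the 16577 genes of the fGTS2 single cells. Of the 68, 11 encode fibrillar collagen chains, 19 basement membrane collagen and laminin chains, 11 beaded filament or network collagen chains, 14 fibril-associated or transmembrane collagen chains, 4 thrombospondins, 5 lysyl oxidases and 3 the glycoproteins fibronectin, SPARC and tenascin-C. The remaining name, Col4a3bp, encodes a ceramide transfer protein that is not a matrix component and entered only through its name. In the tables of open chromatin, 49 of 88981 regions (for 37 members) and 42 of 88258 regions (for 34 members) lay within 1 kb of the start of a member.

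The study asked how medulloblastoma, a malignant tumor of the cerebellum, recurs, and compared 2 mouse models. In GTML mice the glutamate transporter gene Glt1 directs a tetracycline-dependent MYCN transgene, and in GTS mice Sox9 directs it. Bulk RNA was measured in 8 tumors of the GTML and 6 of the GTS model and in 2 sources labelled GTML3 (a GTML medulloblastoma) and preGTS1, each given the solvent DMSO or doxycycline (DOX) in 3 samples. Open chromatin was measured by ATAC-seq in duplicate libraries of GTML3 and preGTS1 under DMSO and DOX, of GTS1 and GTS2, and of GFP and nonGFP sources labelled as GTML tumor, and single-cell RNA came from 1 library each of GTML_SOX9GFP and fGTS2. Doxycycline switches off a tetracycline-off transgene. The labels do not give strain, age, further alleles, dose or time of treatment, nor whether a source is 1 clone, how GFP and nonGFP were separated or whether samples of a group came from separate animals or cultures, so p-values measure only the spread between these samples. In bulk RNA, fewer cells of a type and less RNA per cell cannot be told apart.

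The extracellular matrix of the healthy brain holds little fibrillar collagen outside the meninges and vessel walls. Collagen IV and laminins form sheets of basement membrane around vessels and under the pial surface, where collagen IV chains assemble in fixed partnerships and each laminin is a trimer of an alpha, a beta and a gamma chain. Fibronectin, tenascin-C, SPARC and thrombospondins link cells to this scaffold or modulate that link, and lysyl oxidases cross-link collagen and elastin once they are secreted.

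Some facts of the whole tables bear on the values. Read totals were 10861225 to 24671854 in the treated RNA libraries, 827366 to 7773324 in the ATAC libraries of the treated and GTS sources and 8964353 to 14953541 in the GFP and nonGFP libraries. Mycn, the driving gene, was lower under DOX in every sample of both sources (log2 CPM 8.42 to 8.69 against 4.80 to 5.07 in GTML3, and 10.45 to 10.91 against 5.54 to 6.13 in preGTS1), and Sox9 was higher (-0.90 to 0.27 against 1.54 to 2.15, and 1.13 to 2.21 against 3.71 to 3.87). The first DOX replicate of GTML3 stood apart from the other 2, with a chi-square per degree of freedom of 60.4 and 85.1. In the tumor table, 8 columns carry the number 120 in their names (6 GTML and 2 GTS) and 6 another number (2 GTML and 4 GTS). From the row of Arf6 onward, 4736 of the 16078 genes had a median SD of 1.96 over the columns numbered 120 against 0.518 over the others, while the 11342 genes before it had 0.514 and 0.545. For the 16 members past that row, values are therefore given only from the 6 other columns. Fits and counts over the whole table still include these members with all columns.

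Between GTS and GTML tumors few matrix genes passed the test. Only Col19a1, a fibril-associated collagen of neurons and muscle, did so over the whole table, and it was higher in GTS by 4.35 ± 0.531 (SE) on the log2 scale (limma adjusted p = 0.00935). The other 67 members did not pass, against a background of 0.0573% of all 15708 genes called by limma with Benjamini-Hochberg adjustment (0.0509% higher and 0.00637% lower; 9 genes in all, which became 585 without the second GTS tumor and 319 without the third), and the median difference of the members was 0.04 against -0.07 over all genes. At an unadjusted p below 0.05 there were 14 members and 3067 genes in all. When limma was fitted on the genes before the change in the table alone, 2 of 52 members passed, Col19a1 among them, where 4.34% of all 11184 genes passed (3.14% higher and 1.2% lower), and the members' median was 0.30 against 0.09.

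Col19a1 ranged from -0.16 through a median of 0.48 to 2.15 log2 CPM in the 8 GTML tumors. In the 6 GTS tumors the lowest, median and highest were 3.70, 5.10 and 5.80. Every GTS tumor lay above every GTML tumor, which was so for 1 of the 52 members before the change and for 2.36% of all genes there (1.46% higher and 0.903% lower). The difference was 3.85 without the columns numbered 120 (limma adjusted p = 0.135) and 4.80 within them (adjusted p = 0.117), and without the first GTS tumor it was 4.05 with an adjusted p of 0.0598.

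The basement membrane chains of vessels showed no called difference. Col4a1, a chain of the ubiquitous collagen IV trimer, was 7.77, 8.02 and 8.90 log2 CPM (lowest, median, highest) in GTML and 6.57, 7.70 and 8.43 in GTS. Its partner Col4a2 was 6.98, 7.86 and 8.50 in GTML and 6.02, 7.03 and 8.00 in GTS. Of the 6 GTS tumors, 4 lay below all GTML tumors for Col4a1 and 3 for Col4a2, with differences of -0.50 ± 0.303 and -0.78 ± 0.325. The laminin chain Lamb1 was 5.56, 6.60 and 7.65 in GTML and 6.13, 7.28 and 7.68 in GTS, with a difference of 0.45. Lamc1, the gamma chain of most laminins, was 7.27, 7.39 and 7.86 against 6.53, 7.26 and 7.34, and Lama4, an alpha chain of vessels, was 4.91, 5.15 and 6.44 against 4.22, 5.26 and 6.38. All 5 overlapped between the models, and no chain of the class passed over the whole table.

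None of the 9 fibrillar collagens before the change passed the test. Col1a1, a chain of the most abundant collagen of the body, was 3.53, 5.83 and 7.75 in GTML and 3.92, 5.94 and 7.61 in GTS. Its partner Col1a2 was 3.92, 6.93 and 8.75 in GTML and 4.45, 7.11 and 8.26 in GTS. Col3a1, which forms fibrils with collagen I in soft tissue, was 4.78, 7.59 and 9.70 in GTML and 4.62, 6.99 and 7.69 in GTS. Differences between the models were -0.16 ± 0.811, 0.16 and -1.0 ± 0.764, smaller than the SD within either model. Col27a1, a fibrillar chain of cartilage, stood further apart, at 0.72, 2.33 and 4.34 in GTML and 1.74, 4.58 and 5.61 in GTS, with 3 GTS tumors above all GTML tumors and a difference of 1.67 ± 0.78 (limma adjusted p = 0.259). Of the microfibril-forming collagen VI chains, Col6a1 was 5.30, 5.72 and 7.53 against 4.93, 6.03 and 7.23. Col6a2 was 4.46, 4.96 and 6.80 against 3.82, 5.15 and 6.25. Col6a4 and Col6a6 stood further apart, by 2.11 ± 0.583 and 2.37 ± 1.06 (limma adjusted p = 0.0992 and 0.244). For these chains 5 and 3 GTS tumors lay above all GTML tumors. Col6a3 and Col6a5 differed by -0.46 and -0.18. Fn1, which encodes fibronectin, was 6.42, 7.89 and 9.47 in GTML and 5.87, 7.76 and 8.53 in GTS.

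Tnc, the gene of tenascin-C, was 5.05, 5.82 and 7.62 in GTML and 5.89, 7.27 and 10.34 in GTS, and 2 GTS tumors lay above all GTML tumors. Its difference of 1.60 ± 0.655 had a limma adjusted p of 0.212. Sparc, a collagen-binding secreted protein, was 6.02, 6.88 and 7.60 against 6.89, 7.27 and 8.25, and the thrombospondin gene Thbs1 was 3.95, 5.27 and 6.48 against 5.16, 5.73 and 7.30. The models overlapped in all 3 genes. The plot of log2 CPM by tumor shows the spread of 10 members with the separation of Col19a1 beside them.

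**Figure D1:**
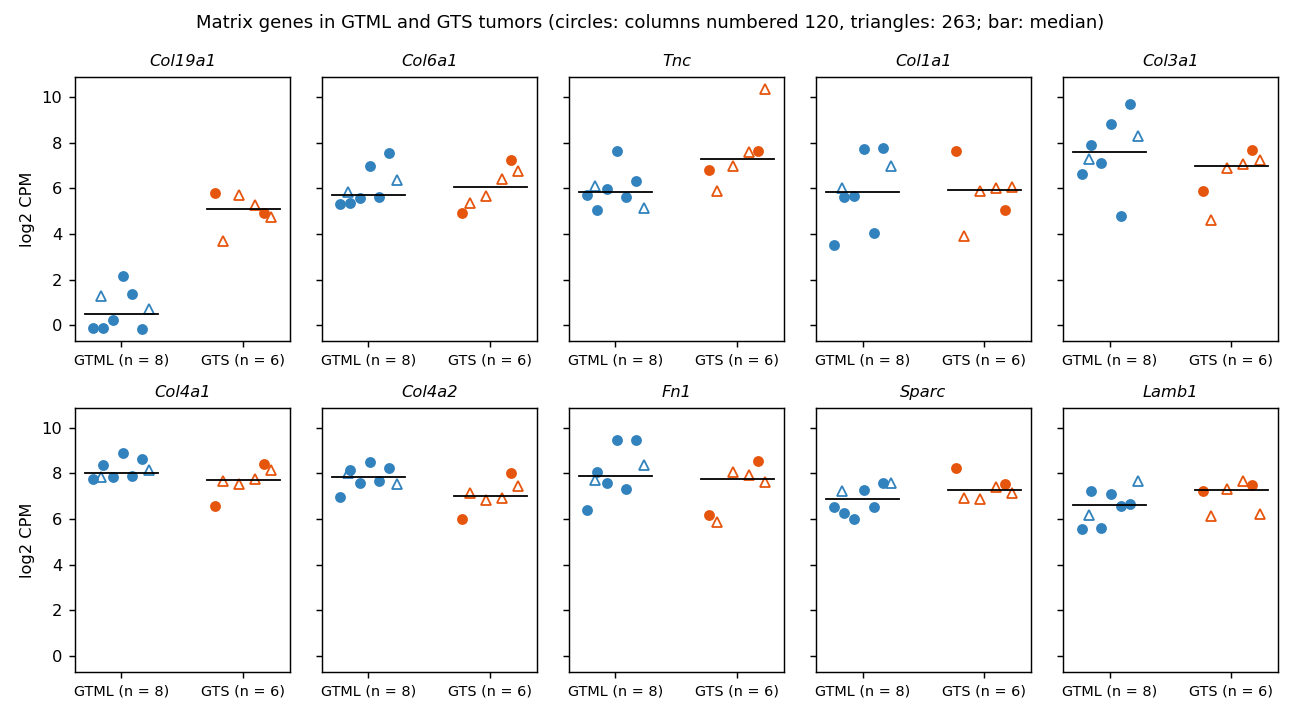
Log2 CPM (vertical axis) of 10 matrix genes in each of 8 GTML and 6 GTS tumors, with the median of each model as a bar, circles for columns numbered 120 and triangles for the others. Col19a1 is the gene whose models do not overlap (at most 2.15 in GTML, at least 3.70 in GTS), while Col1a1 and Col3a1 spread over several log2 units within each model.

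For the 16 members past the change in the table, values are given only from the 2 GTML and 4 GTS columns not numbered 120. No test is read for them beyond the whole-table fit, in which none passed. Col4a5 and Col4a6, the chains of another collagen IV network, were 3.23 and 4.87, and 2.27 and 3.56, in the GTML tumors. In the GTS tumors Col4a5 was 2.37, 1.71, 1.69 and 1.34, and Col4a6 was 2.08, 0.83, 1.06 and -1.57. Every GTS value lay below both GTML values for each of these neighbouring genes, and above both for Lama3, an epithelial laminin chain (0.86 and 0.85 against 0.87, 1.75, 1.82 and 2.16). So few columns often separate: these 3 of 16 members compare with 27.5% of all 4736 genes there (13.5% higher). Lox, the founding lysyl oxidase, was 2.47 and 3.35 in GTML and -0.36, 2.54, 2.48 and 3.10 in GTS. Thbs4 was 0.11 and -0.17 against 0.24, -0.36, 1.37 and -0.42. Both genes overlapped. Thbs2 was 1.62 and 3.03 against 0.10, 1.97, 3.13 and 2.55, Lama1 was 5.37 and 3.83 against 4.65, 2.66, 3.53 and 2.12, and Col8a1 was 6.34 and 5.70 against 7.48, 4.79, 5.14 and 4.52.

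The level of the fibrillar class moved with markers of mural cells and fibroblasts from tumor to tumor. Over 14 tumors, the mean log2 CPM of the 9 fibrillar genes before the change and of 8 such markers gave a Pearson r of 0.84 (permutation p = 0.00012) and a Spearman rho of 0.89 (permutation p = 8e-05). The adjusted p over 6 relations was 0.00072, and r was 0.77 without the 2 tumors farthest from the median. The full list of these markers includes Dcn, Lum and Ogn, which encode matrix proteoglycans. Part of the relation can therefore be between matrix genes, and a relation to cell markers alone was not tested. Within the 8 columns numbered 120 r was 0.87 and rho 0.88 (exact permutation p = 0.00342 and 0.00724, adjusted p 0.0103 for r), and within the 6 others r was 0.79 and rho 0.77 (exact permutation p = 0.0778 and 0.103, adjusted p 0.0933 for r). The 15 basement membrane genes against 8 endothelial markers gave r of 0.60 and rho of 0.61 over all tumors (permutation p = 0.0257 and 0.0226, adjusted p 0.0417 for r), and r of 0.61 without the 2 farthest tumors. That relation did not hold within the columns numbered 120, where r was 0.29 and rho 0.12 (exact permutation p = 0.47 and 0.793, adjusted p 0.47), while within the others r was 0.87 and rho 0.94 (exact permutation p = 0.0278 and 0.0167, adjusted p 0.0417). Summed CPM of the mural and fibroblast markers ranged from 119 to 525 in GTML and from 131 to 381 in GTS, and of the endothelial markers from 166 to 288 and from 166 to 421. Markers of other cells went both ways at the median, with overlapping ranges. Higher in GTS were astrocyte markers (107 CPM in GTML and 333 in GTS), oligodendrocyte markers (52.1 and 127), microglia and macrophage markers (200 and 352) and erythroid markers (12.3 and 30.6). Lower in GTS were cerebellar neuronal and progenitor markers (375 and 276) and the 1 ependymal marker (6.28 and 4.54). The fibrillar genes summed to 122 to 1980 CPM in GTML and 131 to 773 in GTS. The part of these cells in the levels of matrix genes was not tested.

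**Figure D2:**
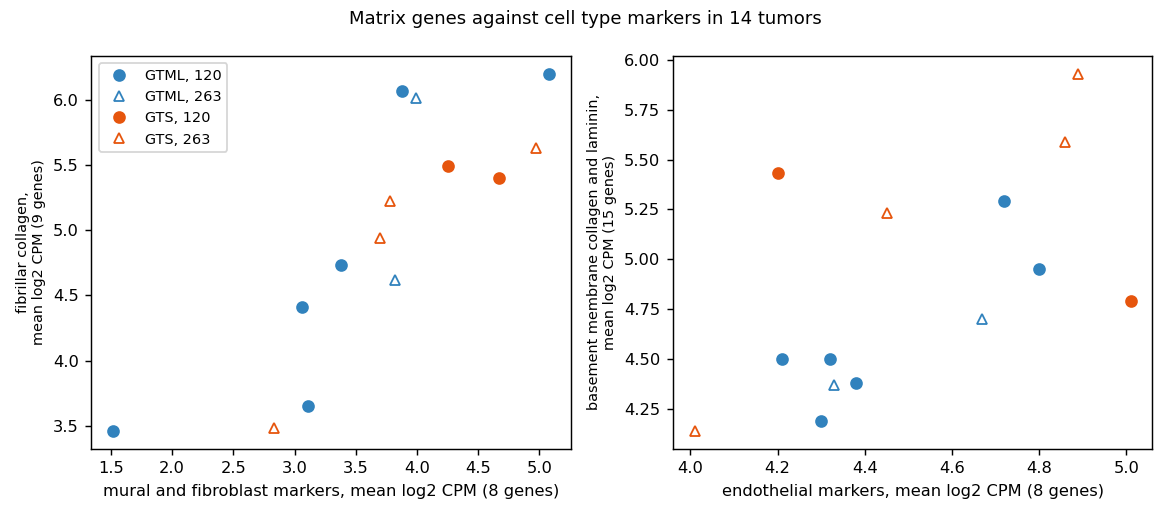
Mean log2 CPM of fibrillar collagen genes against mural and fibroblast markers (left) and of basement membrane genes against endothelial markers (right), 1 point per tumor, coloured by model and shaped by the number in the column name. Points rise together on the left (r = 0.84 over 14 tumors), and on the right the 8 columns numbered 120 form a cloud with r = 0.29.

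Genes around the members gave few called differences between the tumor models. None of the collagen processing enzymes, matrix receptors, proteases, other matrix glycoproteins or proteoglycans passed in limma over the whole table. There 4 of 24, 6 of 29, 1 of 24, 7 of 30 and 6 of 20 had an unadjusted p below 0.05, against 3067 of all 15708 genes. These lists include genes past the change in the table. Over the genes before the change, 3 of 21 matrix receptors tested passed, all higher in GTS: Itga6 by 0.90 (limma adjusted p = 0.0436) and Itga3 by 2.88 (adjusted p = 0.029), which encode laminin-binding integrin chains, and Itgb6 by 4.73 (adjusted p = 0.0493), a chain of a fibronectin receptor of epithelia. None of the other 4 lists had a call there. Of all 11184 genes before the change 4.34% passed (3.14% higher and 1.2% lower).

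In the treated sources the members were called with DOX about as often as other genes, and more of the called members rose than fell. In GTML3, 23 of the 49 listed members rose and 9 fell, where 65.8% of all genes were called (34.5% higher and 31.4% lower), with a median change of 0.71 in the members against 0.05 over all genes. In preGTS1, 30 rose and 3 fell, where 68.3% of all genes were called (34.5% higher and 33.7% lower), with a median of 1.14 against 0.04. The test of the difference between the responses passed for 23 members, of which 18 had the higher log2 change in preGTS1 and 5 the lower, against 42.2% of all genes (17.1% and 25.1%). The members' median difference was 0.49 against -0.10 over all genes. These calls are from limma with all 4 groups in 1 model and an adjusted p below 0.05, and each member was tested among 15926 genes. Some of the rises in GTML3, such as those of Col5a2, Col27a1 and Thbs2, rested on few reads.

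Both sources raised 18 members and lowered Col14a1 and Fn1. Some of the 18 rested on few reads in a source, such as Col5a2 and Col6a2 in GTML3 and Col8a1 in preGTS1. Lama1, Lama5, Lamc1 and Col6a3 fell in GTML3 and rose in preGTS1, and Col18a1 did the opposite. Another 8 rose in preGTS1 without a call in GTML3, among them Tnc, Sparc, Thbs1, Col12a1, Col4a5 and Col4a6. In this fit a further 9 were called in neither source, including Lamb1, Col4a2, Col11a1 and Col3a1. The share of all genes in each of these joint groups was not counted. With 65.8% of all genes called in GTML3 and 68.3% in preGTS1, the joint counts are not read as particular to the members. The 3 samples under DOX did not overlap with the 3 under DMSO in 29 of the 49 members in GTML3 (19 higher, 10 lower), where 70.7% of all genes separated (37.9% higher and 32.9% lower), and in 39 in preGTS1 (35 higher, 4 lower), where 73.1% did (37.5% and 35.6%).

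**Figure D3:**
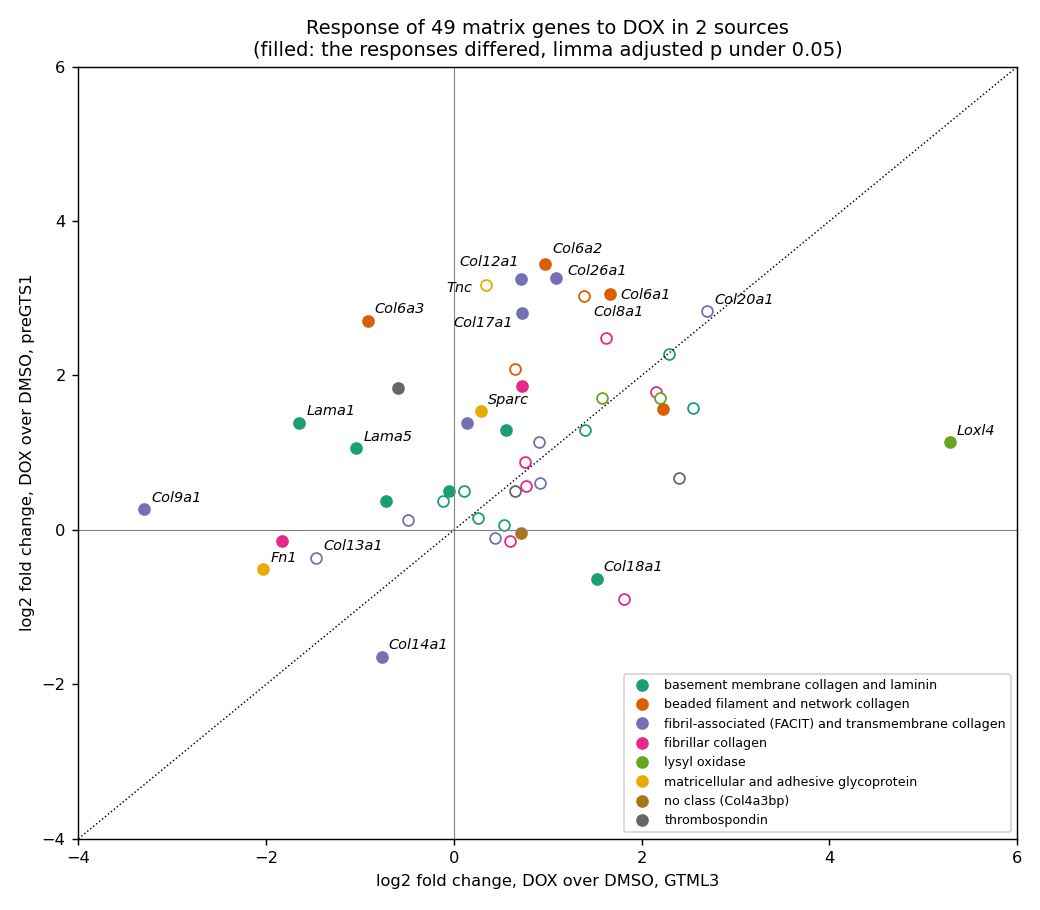
Log2 fold change under DOX in GTML3 (horizontal axis) against that in preGTS1 (vertical axis) for the 49 listed members, coloured by class, with filled points where limma called the difference between the responses and a dotted line where both are equal. Most points lie above 0 in preGTS1, Loxl4 stands far to the right (5.28 against 1.14) and Lama1 lies left of 0 and above it (-1.65 against 1.39).

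The basement membrane class held members that moved in opposite directions. Of its 13 listed members, 5 rose and 3 fell in GTML3 and 8 rose and 1 fell in preGTS1. The responses differed for 6, with the higher log2 change in preGTS1 for 5 of them. Over all genes 65.8% were called in GTML3, 68.3% in preGTS1 and 42.2% for the difference, so the numbers called in the class were near the background. Lama1, the alpha chain of laminin 111 in early basement membranes, was 3.72, 3.61 and 3.68 log2 CPM in GTML3 under DMSO and 2.12, 2.04 and 1.89 under DOX. In preGTS1 it was 3.62, 2.91 and 3.3 under DMSO and 4.56, 4.66 and 4.79 under DOX. The groups did not overlap in either source and moved apart: -1.65 ± 0.162 (limma adjusted p = 2.32e-07) in GTML3 and 1.39 ± 0.162 (1.41e-06) in preGTS1. The difference between the responses was 3.04 ± 0.229 (limma adjusted p = 9.04e-08).

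Lama5, the alpha chain of the laminins of mature vessels and epithelia, was 6.18, 6.02 and 6.16 in GTML3 under DMSO and 5.37, 5.09 and 4.76 under DOX. The preGTS1 values were 6.98, 6.40 and 6.71, then 7.65, 7.98 and 7.65. It fell by 1.04 ± 0.159 in GTML3 (limma adjusted p = 4.89e-05) and rose by 1.06 ± 0.159 in preGTS1 (3.73e-05). Lamc1 was 6.69, 6.58 and 6.60 in GTML3 under DMSO and 6.01, 5.84 and 5.85 under DOX. In preGTS1 the gene was at 7.49, 7.37 and 7.35, then 7.67, 7.86 and 7.79. The change was -0.72 ± 0.0784 (limma adjusted p = 7.4e-07) in GTML3 and 0.37 ± 0.0784 (0.000557) in preGTS1, again without overlap. Lamb2, the beta chain of synaptic and vessel laminins, rose in both, by 0.56 (limma adjusted p = 0.000157) and 1.29 (1.45e-08). Lama2, of the laminin of glia and muscle, also rose in both, by 2.29 (limma adjusted p = 0.000755) and 2.28 (0.000738).

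Lamb1 differed far more between the sources than with DOX. It was 0.74, 0.20 and 1.0 in GTML3 under DMSO and 0.88, 0.96 and 0.88 under DOX, and in preGTS1 7.56, 7.5 and 7.48, then 7.66, 7.67 and 7.67. Every preGTS1 sample lay far above every GTML3 sample. Under DMSO the difference was 6.86 ± 0.153 (limma adjusted p = 1.36e-14), 112 times in summed CPM, and the change with DOX in preGTS1 was 0.15 (limma adjusted p = 0.39), with no overlap between its samples and a call by DESeq2 (0.22, adjusted p = 0.0119). In GTML3 the rise was called without the last DMSO replicate (0.43, limma adjusted p = 0.014). Col18a1, whose end fragment is endostatin, was -0.29, 0.35 and -0.22 in GTML3 under DMSO and 1.48, 1.44 and 1.49 under DOX. In preGTS1 it was 2.53, 2.68 and 2.63, then 1.93, 2.35 and 1.66. It rose by 1.52 ± 0.243 in GTML3 (limma adjusted p = 4.69e-05) and fell by 0.63 ± 0.243 in preGTS1 (0.0305), a call lost without any single preGTS1 library except the second DOX replicate (adjusted p 0.0515 to 0.13). The difference between the responses was -2.15 (limma adjusted p = 0.000153).

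The collagen IV genes lie in head-to-head pairs, and the pairs listed here behaved differently between the sources. The starts of Col4a1 and Col4a2 face away from each other on chromosome 8, so close that their promoter windows overlap, whereas 1275 bases separate the annotated genes Col4a5 and Col4a6 on chromosome X. The windows below are RefSeq sequences of build GRCm38.p6, from 250 bases before to 50 after each start and written 5′ to 3′ on the strand of the gene. They are shown because Col4a1 and Col4a2 differed the same way between the sources and Col4a5 and Col4a6 did not. Capitals mark each match to the Sp1 GC box GGGCGG or the TEAD site GGAATG, on either strand.
Col4a1 (chr8:11312777-11313076, minus strand): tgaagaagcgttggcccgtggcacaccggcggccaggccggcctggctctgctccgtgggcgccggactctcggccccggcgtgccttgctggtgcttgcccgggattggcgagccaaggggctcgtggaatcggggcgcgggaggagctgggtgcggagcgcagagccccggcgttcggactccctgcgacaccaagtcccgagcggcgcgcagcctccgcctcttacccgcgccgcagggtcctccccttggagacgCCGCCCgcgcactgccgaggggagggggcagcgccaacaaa
Col4a2 (chr8:11312555-11312854, plus strand): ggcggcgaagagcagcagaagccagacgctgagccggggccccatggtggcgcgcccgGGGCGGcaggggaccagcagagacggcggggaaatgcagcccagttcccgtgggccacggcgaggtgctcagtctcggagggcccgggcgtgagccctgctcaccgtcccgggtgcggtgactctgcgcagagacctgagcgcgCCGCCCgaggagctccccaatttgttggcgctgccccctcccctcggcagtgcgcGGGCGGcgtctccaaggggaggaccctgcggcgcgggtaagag
Col4a5 (chrX:141475169-141475468, plus strand): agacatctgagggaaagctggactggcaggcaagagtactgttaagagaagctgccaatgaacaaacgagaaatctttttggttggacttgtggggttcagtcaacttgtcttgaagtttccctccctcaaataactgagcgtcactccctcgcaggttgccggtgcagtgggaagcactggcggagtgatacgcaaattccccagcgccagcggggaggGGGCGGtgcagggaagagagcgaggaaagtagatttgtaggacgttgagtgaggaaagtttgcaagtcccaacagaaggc
Col4a6 (chrX:141474027-141474326, minus strand): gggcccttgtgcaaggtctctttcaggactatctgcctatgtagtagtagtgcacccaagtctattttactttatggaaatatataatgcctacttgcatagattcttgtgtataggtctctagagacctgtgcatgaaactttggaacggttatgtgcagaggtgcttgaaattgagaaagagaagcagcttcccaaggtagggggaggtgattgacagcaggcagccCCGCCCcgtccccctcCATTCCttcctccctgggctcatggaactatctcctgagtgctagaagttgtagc

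The Col4a1 window holds 74% G and C with 37 CpG and 1 GC box, and that of Col4a2 73.7%, 33 CpG and 3 GC boxes. Col4a5 has 52.7% with 11 CpG and Col4a6 48.3% with 3 CpG, each with 1 GC box, and Col4a6 has the TEAD letters once. A window was matched for 46 of the 68 members. GGGCGG on either strand was in 29 of them (63.0%) against 35.9% of all 27025 windows, GGAATG in 4 (8.7% against 14.6%), the AP-1 site TGANTCA in 1 (2.17% against 7.93%) and the E-box CACGTG in 0 (against 7.23%). No searched motif holds another, and a match is a description of the sequence only.

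Col4a1 was 0.57, 0.73 and 0.44 log2 CPM in GTML3 under DMSO and 1.44, 1.36 and 0.55 under DOX. The preGTS1 samples had 6.12, 6.0 and 5.64, then 5.96, 6.02 and 5.96. Its partner Col4a2 was -0.90, -0.78 and -0.22, then -0.69, -0.85 and -0.03, in GTML3, and 5.60, 5.16 and 5.22, then 5.76, 5.97 and 5.76, in preGTS1. Both were far higher in preGTS1 under DMSO, by 5.34 ± 0.203 (limma adjusted p = 5.28e-12) and 5.96 (7.95e-12), which is 41.7 and 62.6 times in summed CPM. With DOX, Col4a1 changed by 0.53 ± 0.203 in GTML3 (limma adjusted p = 0.0301), which edgeR (0.0607) and DESeq2 (0.0502) did not call, and by 0.06 in preGTS1. The change of Col4a2 was 0.11 in GTML3 and 0.51 in preGTS1 (limma adjusted p = 0.0687). The latter, without overlap between samples, was called on log2(CPM + 1) (0.00659), with only the preGTS1 samples in the model (0.00365), without the last DMSO or last DOX replicate of GTML3 (0.0469 and 0.0357), by edgeR (0.00239) and by DESeq2 (0.0003).

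Col4a5, mutated in Alport kidney disease, was instead higher in GTML3. It was 8.90, 9.06 and 9.04 in GTML3 under DMSO and 8.96, 8.67 and 9.03 under DOX, and in preGTS1 6.58, 6.66 and 6.17, then 7.05, 6.54 and 6.94. Its neighbour Col4a6, a chain of smooth muscle basement membranes, was 2.76, 2.54 and 2.76, then 2.45, 2.50 and 2.96, in GTML3, and 4.84, 4.70 and 4.52, then 5.25, 5.05 and 5.27, in preGTS1. Under DMSO the pair differed in opposite directions between preGTS1 and GTML3: -2.53 ± 0.145 for Col4a5 (limma adjusted p = 1.9e-09) and 2.0 ± 0.148 for Col4a6 (1.2e-08). Both rose with DOX in preGTS1, by 0.38 (limma adjusted p = 0.0328) and 0.51 (0.00674), and neither was called in GTML3 (-0.12 and -0.05).

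The fibrillar collagens set the sources apart more than they followed DOX. Of 8 listed chains, 5 rose and 1 fell in GTML3 and 4 rose in preGTS1, where 65.8% and 68.3% of all genes were called. The rises of Col5a2 and Col27a1 in GTML3 rested on few reads. Col3a1 had 0 reads in the 3 GTML3 samples under DMSO and 1 under DOX, and was 7.31, 7.26 and 6.80 log2 CPM in preGTS1 under DMSO and 8.05, 8.00 and 7.98 under DOX. Taking 3 reads over the group as the floor, Col3a1 was at least 2700-fold higher in preGTS1 under DMSO. Its difference of 0.88 ± 0.463 with DOX in preGTS1 had a limma adjusted p of 0.103 although the samples did not overlap, and was called when only the preGTS1 samples entered the model (6.37e-05), by edgeR (3.38e-06) and by DESeq2 (3.63e-11). Col5a2, a chain of the collagen V that starts fibrils, had 0 and 3 reads in GTML3 and was 5.08, 5.16 and 4.90, then 6.90, 6.81 and 6.81, in preGTS1. It rose there by 1.79 ± 0.645 (limma adjusted p = 0.0235, 3.45 times in summed CPM) and was at least 632-fold higher than in GTML3 under DMSO. Its partner Col5a1 fell in GTML3, from -0.13, -0.16 and 0.15 to -2.41, -1.07 and -2.13, by 1.83 ± 0.299 (limma adjusted p = 5.91e-05), and was 4.84, 4.32 and 4.46, then 4.24, 4.63 and 4.29, in preGTS1, a change of -0.15.

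Col5a3, a further chain of that collagen, rose in both sources, by 1.62 (limma adjusted p = 0.000506) in GTML3 and 2.49 (6.8e-06) in preGTS1. Col11a2, a chain of cartilage fibrils, rose by 0.73 and 1.86. Its partner Col11a1 had 5 and 4 reads in GTML3 against 2645 and 1882 in preGTS1, a difference under DMSO of 9.23 (limma adjusted p = 1.6e-07), and it was not called with DOX in either source. Col27a1 had 4 and 8 reads in GTML3 and 428 and 189 in preGTS1, with a difference under DMSO of 7.01 (limma adjusted p = 9.05e-07). The cartilage collagen Col2a1 was lower in preGTS1 under DMSO (-2.48), at 0.69, 0.17 and 0.69 against 2.91, 2.96 and 3.13.

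Collagen VI, whose 3 main chains join into beaded filaments between basement membranes and fibrils, rose strongly in preGTS1. Col6a1 was 3.96, 3.96 and 4.04 log2 CPM in GTML3 under DMSO and 5.63, 5.59 and 5.72 under DOX. In preGTS1 it was 4.28, 4.11 and 4.16, then 7.27, 7.25 and 7.21. No sample under DOX overlapped with one under DMSO. The rise was 1.66 ± 0.0806 in GTML3 (limma adjusted p = 6.57e-11, 3.18 times in summed CPM) and 3.06 ± 0.0806 in preGTS1 (9.99e-14, 8.33 times), and the difference between the responses was 1.40 ± 0.114 (1.95e-07). Under DMSO the sources differed by 0.20 (limma adjusted p = 0.0409), which was not called after the samples were centred (0.347) or with a replicate block (0.0621). The promoter window of Col6a1 on chromosome 10 is shown because this gene had the smallest adjusted p of the class and is the single member with the AP-1 letters TGANTCA, in capitals.
Col6a1 (chr10:76725995-76726294, minus strand): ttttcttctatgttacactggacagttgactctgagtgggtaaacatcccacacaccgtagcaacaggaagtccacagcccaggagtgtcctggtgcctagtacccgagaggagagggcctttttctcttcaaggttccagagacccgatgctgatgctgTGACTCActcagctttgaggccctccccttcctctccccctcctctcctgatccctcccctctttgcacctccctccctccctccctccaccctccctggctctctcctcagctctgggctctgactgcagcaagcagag

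The other chains were less abundant in GTML3. Col6a2 was -1.04, -1.91 and -2.23 in GTML3 under DMSO and -0.33, -1.07 and -0.86 under DOX, and in preGTS1 2.38, 1.92 and 1.87, then 5.45, 5.66 and 5.39. It rose by 3.44 ± 0.313 in preGTS1 (limma adjusted p = 7.97e-08, 10.8 times in summed CPM). The rise of 0.97 in GTML3 (limma adjusted p = 0.0128) rested on 18 and 25 reads and was not called by edgeR (0.0755) or DESeq2 (0.0839). Col6a3 was -1.04, -0.50 and -0.71, then -1.16, -1.32 and -2.52, in GTML3, and 2.0, 1.66 and 1.26, then 4.17, 4.33 and 4.54, in preGTS1. It rose by 2.71 ± 0.354 in preGTS1 (limma adjusted p = 5.04e-06), while the change in GTML3 was -0.92 ± 0.354 (0.032) on 33 and 13 reads. The difference between the responses was 2.47 ± 0.443 for Col6a2 (limma adjusted p = 0.000406) and 3.63 ± 0.50 for Col6a3 (4.03e-05).

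Among the network collagens, Col7a1, the anchoring fibril collagen of skin, rose in both sources, from 3.06, 2.92 and 3.05 to 5.32, 5.13 and 5.26 in GTML3 and from 1.02, 1.19 and 0.86 to 2.55, 2.82 and 2.4 in preGTS1. The changes were 2.23 ± 0.154 (limma adjusted p = 3.99e-09) and 1.57 ± 0.154 (1.96e-07). Their difference of -0.66 (limma adjusted p = 0.0241) was lost without the second DMSO or last DOX replicate of either source (0.0534 to 0.0585). Col8a1, a collagen of vessel walls, was 2.71, 2.72 and 2.83, then 4.10, 4.16 and 4.17, in GTML3, a rise of 1.39 (limma adjusted p = 0.0287). In preGTS1 it had 1 read under DMSO and 9 under DOX. It was the member most strongly lower in preGTS1 under DMSO by fitted value (-8.21).

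The fibril-associated and transmembrane collagens had 4 rises and 3 falls in GTML3 among 12 listed, and 7 rises and 1 fall in preGTS1. Over all genes 65.8% and 68.3% were called in these sources. Col20a1, a fibril-associated chain, rose alike in both sources: from 1.04, 0.83 and 1.14 to 3.66, 3.63 and 3.82 in GTML3, and from 0.92, 1.69 and 1.96 to 4.39, 4.49 and 4.18 in preGTS1. The changes were 2.70 ± 0.225 (limma adjusted p = 3.46e-08) and 2.83 ± 0.225 (1.57e-08). Col17a1, the transmembrane collagen of hemidesmosomes, was 6.10, 6.04 and 5.95, then 6.66, 6.77 and 6.82, in GTML3. The preGTS1 values were 1.36, 1.31 and 1.45, then 4.21, 4.52 and 3.83. It rose by 0.72 (limma adjusted p = 0.00026) and by 2.81 ± 0.138 (5.31e-11), and it was lower in preGTS1 under DMSO (-4.66). Col14a1, which sits on the surface of fibrils, fell in both, from 5.87, 5.93 and 6.0 to 4.96, 5.27 and 5.26 in GTML3 and from 1.98, 1.58 and 1.83 to 0.36, -0.19 and 0.29 in preGTS1, with changes of -0.77 (limma adjusted p = 0.000794) and -1.64 (3.03e-07). The difference between these responses, -0.87 (limma adjusted p = 0.00809), was not called on log2(CPM + 1) (-0.32, adjusted p = 0.155).

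Col12a1, a fibril-associated collagen of tendon and stroma, rose from 0.37, 0.87 and -0.53 to 3.58, 3.33 and 3.56 in preGTS1, by 3.25 ± 0.545 (limma adjusted p = 6.85e-05), and had 12 and 15 reads in GTML3. Col26a1 was 3.06, 3.03 and 3.13, then 4.20, 4.01 and 4.26, in GTML3 (change 1.09, limma adjusted p = 0.0645) and rose in preGTS1 from 9 to 53 reads, by 3.26 ± 0.492 (2.89e-05). The test of the difference between the responses passed for Col12a1 (2.54, limma adjusted p = 0.0153) and for Col26a1 (2.17, adjusted p = 0.0211). Col13a1, a transmembrane collagen of the neuromuscular junction, fell in GTML3 from 4.55, 4.48 and 4.60 to 3.22, 2.77 and 3.25, by 1.47 (limma adjusted p = 0.00086), and had 38 and 23 reads in preGTS1. Col9a1, of cartilage, fell in GTML3 from 15 reads to 1, and was 2.33, 3.14 and 2.81, then 2.86, 3.36 and 2.86, in preGTS1. Col9a1 differed in response by 3.57 (limma adjusted p = 0.00591) and by -3.3 ± 0.652 with DOX in GTML3 (0.000348), calls that on log2(CPM + 1) were lost (0.0956 and 0.159). Col4a3bp, included by name alone, rose by 0.71 in GTML3 and differed in response by -0.75.

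Among the glycoproteins, Fn1 fell in both sources while Sparc and Tnc rose in preGTS1. Fn1 was 6.03, 5.95 and 6.01 log2 CPM in GTML3 under DMSO and 4.36, 3.80 and 3.74 under DOX, and in preGTS1 7.49, 6.89 and 7.09, then 6.51, 6.69 and 6.75. The groups did not overlap in either source. The change was -2.03 ± 0.162 in GTML3 (limma adjusted p = 7.25e-08) and -0.51 ± 0.162 in preGTS1 (0.0132), and without the first DMSO replicate of preGTS1 the latter was -0.34 (0.0674), and without its first DOX replicate -0.44 (0.0511). The difference between the responses was 1.52 ± 0.229 (limma adjusted p = 0.000147). Sparc was 0.86, 0.88 and 0.97, then 0.88, 1.36 and 1.34, in GTML3 (change 0.29, limma adjusted p = 0.0633). Without the first DOX replicate of GTML3, which stood apart, the change was 0.45 and was called (limma adjusted p = 0.0019). In preGTS1 it was 5.94, 6.06 and 5.92, then 7.54, 7.52 and 7.5, a rise of 1.54 ± 0.130 (limma adjusted p = 3.31e-08, 2.91 times in summed CPM) with no overlap.

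Tnc was nearly silent in GTML3, with 5 reads under DMSO and 5 under DOX, and was 5.07, 5.11 and 4.89 log2 CPM in preGTS1 under DMSO and 8.22, 8.19 and 8.18 under DOX. The 3 DOX samples of preGTS1 lay far above its DMSO samples, 9.01 times in summed CPM with a 95% counting interval of 8.6 to 9.43. The rise of 3.17 ± 1.25 had a limma adjusted p of 0.0471, which was lost without any single preGTS1 library, without the first DMSO replicate of GTML3 or without its second DOX replicate (0.0637 to 0.0949). It was called by edgeR (3.2e-12) and by DESeq2 (3.79e-229). The difference between the responses, 2.84, was not called by limma (adjusted p = 0.227) or edgeR (0.0576) and was called by DESeq2 (0.0072) and on log2(CPM + 1) (2.66e-09). The promoter window of Tnc on chromosome 4 is shown because the gene stood out in RNA, open chromatin and single cells, with the single GC box in capitals.
Tnc (chr4:64046966-64047265, minus strand): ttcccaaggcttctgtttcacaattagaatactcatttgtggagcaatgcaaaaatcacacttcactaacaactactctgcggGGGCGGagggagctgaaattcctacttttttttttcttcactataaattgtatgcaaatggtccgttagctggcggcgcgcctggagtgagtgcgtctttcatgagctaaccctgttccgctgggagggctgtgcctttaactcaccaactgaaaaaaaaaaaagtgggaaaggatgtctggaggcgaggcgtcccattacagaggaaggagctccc

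The lysyl oxidase genes held the largest rise of any member in GTML3. Loxl4, a secreted enzyme of collagen cross-linking, was 0.20, -0.06 and -0.60 in GTML3 under DMSO and 4.87, 5.26 and 5.27 under DOX. The preGTS1 samples had 0.98, 1.36 and 1.04, then 2.42, 2.14 and 2.24. All DOX samples lay above all DMSO samples in both. The rise was 5.28 ± 0.226 in GTML3 (limma adjusted p = 1.64e-11, 39.5 times in summed CPM) and 1.14 ± 0.226 in preGTS1 (0.000327, 2.21 times), and the difference between the responses was -4.14 ± 0.320 (1.16e-07). Loxl3, a related enzyme needed for palate development, rose in both, by 2.2 ± 0.226 (limma adjusted p = 3.82e-07) and 1.71 ± 0.226 (5.77e-06). Loxl1 had 2 and 6 reads in GTML3 and 77 and 207 in preGTS1 and was not called with DOX. The Loxl4 window on chromosome 19 is shown as that of the member that rose most in GTML3, with its 3 GC boxes in capitals among 75.0% G and C.
Loxl4 (chr19:42612757-42613056, minus strand): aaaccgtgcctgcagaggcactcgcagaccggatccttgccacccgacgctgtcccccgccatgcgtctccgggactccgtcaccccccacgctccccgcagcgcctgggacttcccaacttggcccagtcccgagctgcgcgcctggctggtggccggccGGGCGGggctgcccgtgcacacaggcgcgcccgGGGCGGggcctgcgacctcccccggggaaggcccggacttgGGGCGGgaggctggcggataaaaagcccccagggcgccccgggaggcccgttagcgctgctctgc

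Of the thrombospondins, secreted calcium-binding proteins that bind matrix and integrins, Thbs1 was 2.06, 2.46 and 2.42, then 1.48, 1.92 and 1.74, in GTML3 (change -0.60, limma adjusted p = 0.0528). That fall was called by edgeR (0.0345), by DESeq2 (0.0354), on log2(CPM + 1) (0.0153), after centring (0.0409), without trend and robust variance (0.0307), with only the GTML3 samples (0.0254) and without any 1 of 5 libraries (0.0379 to 0.0493). In preGTS1 it was -0.04, -0.49 and 0.24, then 1.97, 1.42 and 1.82, a rise of 1.84 ± 0.259 (limma adjusted p = 1.16e-05). The sources differed by -2.41 under DMSO and by 0.02 under DOX, and the difference between the responses was 2.43 (limma adjusted p = 9.04e-05). Thbs2 had 0 and 6 reads in GTML3, and was 7.14, 7.12 and 7.02, then 7.80, 7.68 and 7.81, in preGTS1, at least 2600-fold higher than in GTML3 under DMSO. Its call in GTML3 (2.4, limma adjusted p = 0.0219) rests on those 6 reads, and was lost on log2(CPM + 1) (0.254) and without any single DMSO replicate or the first DOX replicate of GTML3 (0.0623 to 0.073). Thbs3 rose in both sources, by 0.65 and 0.50. Lox, Thbs4, Col1a1, Col1a2 and Lama4 are not listed in the table of treated samples and are not analysed there.

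**Figure D4:**
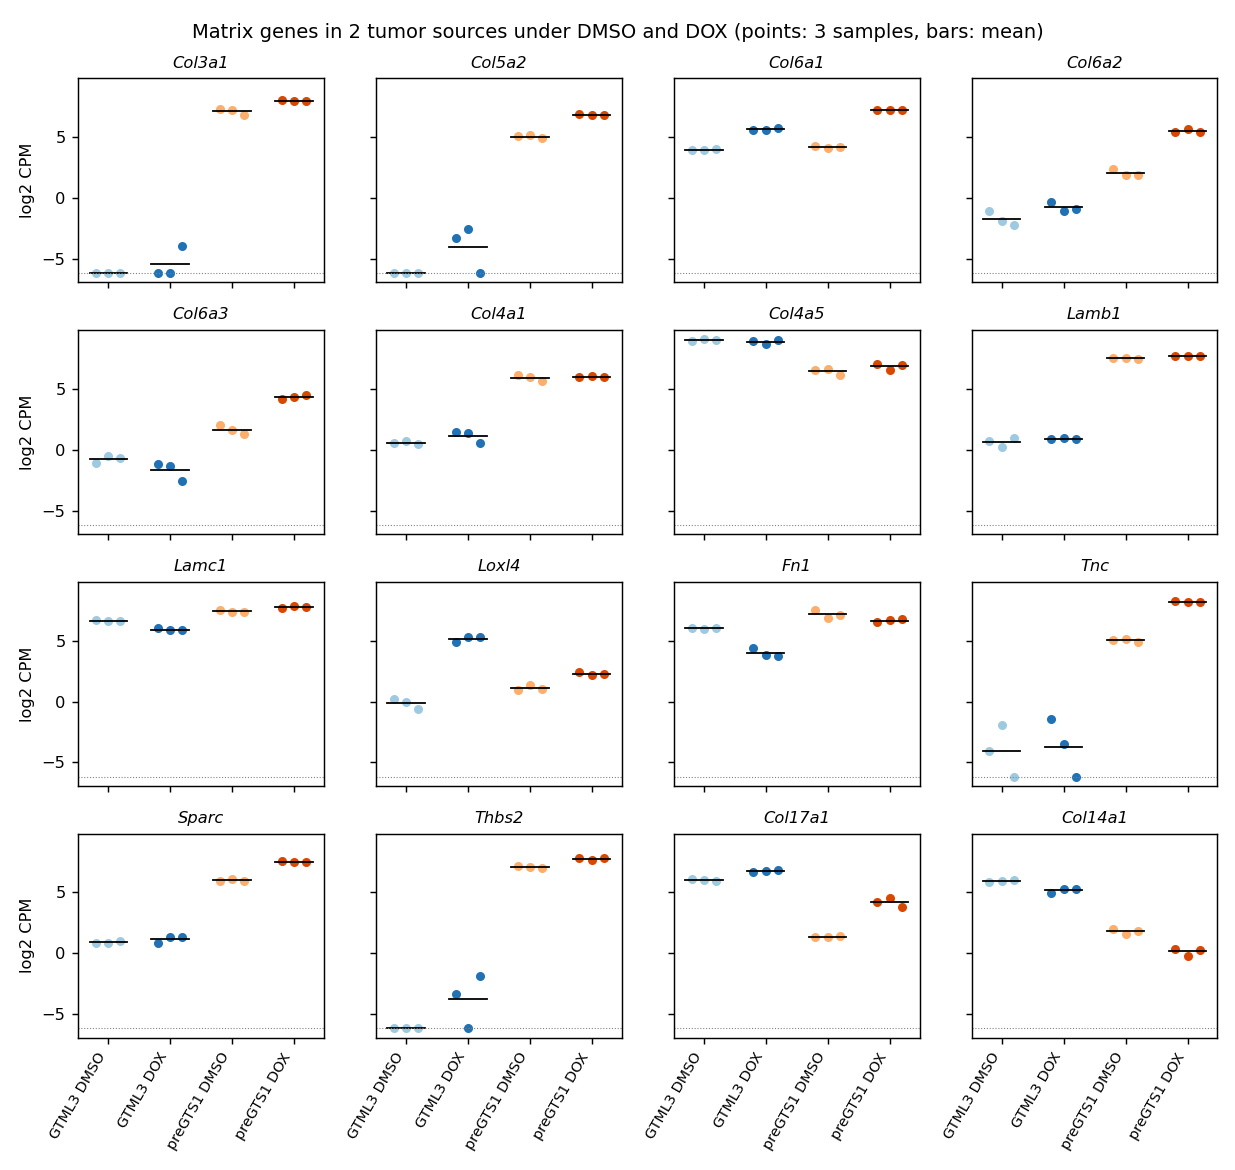
Log2 CPM (vertical axis) of 16 matrix genes in GTML3 and preGTS1 under DMSO and DOX, with a point for each of 3 samples, a bar for their mean and a dotted line at -6.16, the value listed for 0 reads. Col6a1 rises in both sources, Loxl4 mostly in GTML3 and Tnc in preGTS1, while Col3a1, Thbs2, Col4a1 and Lamb1 separate the sources under either treatment.

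Set against each other under DMSO, preGTS1 had more of the matrix genes at a higher level. Of 49 members, 32 were higher and 12 lower than in GTML3, where 66.4% of all genes were called (38.5% higher and 27.9% lower), with a median of 1.81 against 0.13 over all genes. Under DOX it was 34 higher and 10 lower, against 72.0% of all genes (36.9% and 35.0%), with a median of 1.88 against 0.02. These comparisons share their samples with the responses to DOX. The fibrillar class had 6 higher and 1 lower of 8 under DMSO (median 5.80) and 7 and 1 under DOX (median 5.29), and the basement membrane class 8 and 3 of 13 (median 1.81) and then 8 and 1. All 3 glycoproteins were higher in preGTS1 under both treatments, with a median of 5.07 under DMSO: Tnc by 9.06 ± 1.25 (limma adjusted p = 0.00016, 372 times in summed CPM), Sparc by 5.07 (33.9 times) and Fn1 by 1.16. The members lower in preGTS1 under DMSO included Col8a1, Col26a1 (-6.28), Col13a1 (-5.35), Col17a1 (-4.66), Col14a1 (-4.14) and Col4a5. Groups did not overlap for 43 members under DMSO (32 higher, 11 lower), where 72.6% of all genes separated (41.7% higher and 30.8% lower), and for 45 under DOX (35 higher, 10 lower), where 73.6% did (37.8% and 35.8%). Medians include genes with few reads in GTML3, whose fitted differences are not bounds.

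Lists of genes that process, bind or degrade matrix are read against the 65.8% of all genes called with DOX in GTML3 and the 68.3% called in preGTS1. In GTML3 the collagen processing enzymes had 6 rises and 11 falls among 22 listed, from Leprel2, a prolyl hydroxylase (1.42), to the procollagen protease enhancer Pcolce2 (-2.85) and the lysyl hydroxylase Plod2 (-2.43). In preGTS1 the same list had 9 rises and 9 falls, from the procollagen protease Bmp1 (1.26) to Pcolce2 (-3.41). Matrix receptors had 10 rises and 5 falls of 24 in GTML3, from the laminin-binding integrin chain Itga3 (2.68) to the syndecan Sdc1 (-2.59), and 18 rises and 1 fall in preGTS1, from Sdc3 (3.20) to Sdc1 (-0.55). Proteases and their inhibitors had 5 rises and 5 falls of 17 in GTML3, from Mmp23 (2.33) to Adamts9 (-2.18), and 15 rises and 2 falls in preGTS1, from Mmp24 (3.73) to Mmp16 (-1.36), with a median of 1.77. Other matrix glycoproteins had 9 rises and 2 falls of 23 in GTML3, from the matrilin Matn2 (2.67) to the perlecan gene Hspg2 (-1.19), and 15 and 1 in preGTS1, from the testican Spock1 (4.34) to Hspg2 (-2.46). Proteoglycans had 5 rises and 2 falls of 10 in GTML3, and 2 and 3 in preGTS1, from neurocan (Ncan, 1.18) to Gpc3 (-2.84). In GTML3 they ran from brevican (Bcan, 3.28 ± 0.968, limma adjusted p = 0.0146) to the glypican Gpc6 (-2.53 ± 0.157). The rise of Bcan had a wide error, and under DMSO its level in preGTS1 was 8.69 ± 0.968 above that in GTML3. The responses differed for 12 of the 17 proteases and inhibitors, each with the higher log2 change in preGTS1, and for 14 of the 24 receptors, 13 of them higher in preGTS1, against 42.2% of all genes.

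Summed markers of some other cell types were higher under DOX in preGTS1, while single markers of a list differed. Of 9 endothelial markers 4 were listed (Pecam1, Kdr, Esam and Egfl7), with a summed median of 26.7 CPM (25.7 to 30.8) under DMSO and 79.6 (75.0 to 84.3) under DOX, against 5.99 and 9.39 in GTML3. Of 11 mural and fibroblast markers 3 were listed (Pdgfrb, Rgs5 and Cspg4), with 3.64 CPM (2.32 to 3.74) and 9.64 (9.61 to 10.8) in preGTS1 and 7.55 and 13.8 in GTML3, where Pdgfrb had 0 reads under DMSO. Of the listed markers, 1 of 4 endothelial and 2 of 3 mural markers rose with DOX in preGTS1, where 34.5% of all genes rose. Among 3 astrocyte markers 2 rose and 1 fell there, and among 3 oligodendrocyte markers 1 rose and 1 fell. The oligodendrocyte markers had summed medians of 25.8 and 28.8 CPM in preGTS1 and 21.5 and 39.5 in GTML3. Astrocyte markers, 3 of 5 listed, had summed medians of 216 and 573 CPM in preGTS1 and 55.6 and 35.8 in GTML3, and cerebellar neuronal markers 437 and 1310, and 1270 and 2030. The part of such cells in the matrix values was not tested.

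Open chromatin near the starts of members changed little with DOX. A region was counted as changed when its mean log2(CPM + 1) differed by at least 1 and the duplicate libraries of 1 condition lay beyond both of the other. The duplicates of a condition had a chi-square per degree of freedom of 1.88 to 2.05, where counting noise alone gives about 1. They were counted as 1 sample, so there is no test. In GTML3, 1 of 49 member regions gained and 4 lost signal, where 7.07% of all 13445 regions near starts changed (2.86% higher and 4.2% lower), with a median difference of -0.30 against -0.02 over all. In preGTS1, 0 gained and 2 lost, against 3.7% of all (1.44% higher and 2.25% lower), with a median of -0.23 against 0.02. The gain was at Col5a1 (chr2:27741326-27742158), from 0.0 and 0.599 CPM to 3.10 and 1.21, on 0 and 1 reads against 3 and 1. The losses in GTML3 were at Thbs3 (-1.83), Lamb2 (-1.19), Lama5 (-1.14) and Col4a6 (-1.04), and in preGTS1 at Col24a1 (-1.42) and Fn1 (-1.49). The Thbs3 region called had 6 and 8 reads under DMSO and 1 and 0 under DOX. The Thbs3 region with most signal had 36.6 and 43.1 CPM, then 37.2 and 41.1 (-0.02), and the last Thbs3 region was not called (-0.70). The Fn1 region (chr1:71699123-71700324) had 54.3 and 50.9 CPM under DMSO and 19.6 and 16.8 under DOX in preGTS1, both below, and in GTML3 75.5 and 75.4, then 46.5 and 55.6. Coordinates are those of the deposited regions, whose build the tables do not name. Of 35 member regions with a GRCm38 window, 3 lay within 1500 bases of it, so they are not GRCm38 coordinates.

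The sources themselves differed at more of these regions. Relative to GTML3 under DMSO, 10 member regions were higher and 11 lower in preGTS1 under DMSO (19.7% of all regions near starts changed, 10.9% higher and 8.73% lower), 18 higher and 12 lower in GTS1 (31.6%, with 16.6% and 15.0%) and 6 higher and 21 lower in GTS2 (29.3%, with 15.2% and 14.1%). The members' medians were -0.03, 0.31 and -0.65 against -0.19, -0.01 and 0.06 over all. These 3 comparisons share the GTML3 libraries under DMSO. Of the 6 sources, GTS1 had the highest mean CPM at 16 of the 49 member regions (32.7% against 23.7% of all regions near starts), GTML3 under DMSO at 11 (22.4% against 14.5%), preGTS1 under DMSO at 9 (18.4% against 7.23%) and GTS2 at 6 (12.2% against 29.4%).

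The Tnc region (chr4:63707680-63708720) had 2.29 and 2.39 CPM in GTML3 under DMSO and 3.10 and 1.21 under DOX. It had 29.6 and 36.4 in preGTS1 under DMSO, 16.1 and 18.0 under DOX, 26.8 and 24.5 in GTS1 and 164 and 136 in GTS2. All other libraries lay above the GTML3 libraries, with differences on log2(CPM + 1) of 3.34, 2.99 and 5.49 for preGTS1 under DMSO, GTS1 and GTS2. Within preGTS1 the region was lower under DOX in both libraries, while the RNA rose. The Loxl3 region (chr6:82982695-82984254) had 3.43 and 6.58 CPM in GTML3 under DMSO, 21.0 and 30.7 in preGTS1 under DMSO, 27.3 and 27.8 in GTS1 and 57.4 and 60.9 in GTS2, differences of 2.19, 2.30 and 3.37.

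The Col5a1 region had 8.73 and 9.26 CPM in preGTS1 under DMSO, 37.5 and 46.5 in GTS1 and 2.53 and 3.02 in GTS2, higher than in GTML3 under DMSO by 2.98, 5.08 and 1.57. The region shared by Col4a1 and Col4a2 (chr8:11312380-11313382) had 0.0 and 1.80 CPM in GTML3 under DMSO, 11.2 and 8.10 in preGTS1 under DMSO and 6.76 and 9.59 in GTS1, differences of 2.66 and 2.44, whereas GTS2 had 3.37 and 0.0. Opposite to these, the region of Col4a6 (chrX:137908034-137908862) had 57.2 and 67.0 CPM in GTML3 under DMSO, 40.3 and 21.8 under DOX, 12.4 and 16.7 in preGTS1 under DMSO, 1.75 and 2.4 in GTS1 and 0.0 and 3.02 in GTS2. The region of Col4a5 (chrX:137909780-137910501) had 39.5 and 36.5 CPM in GTML3 under DMSO against 10.8 and 9.78, 3.50 and 1.92, and 4.22 and 1.21. Both were lower outside GTML3 in every library, with differences from GTML3 under DMSO of -2.03, -4.36 and -4.97 for Col4a6 and -1.79, -3.43 and -3.52 for Col4a5 in preGTS1 under DMSO, GTS1 and GTS2. For Col4a6 the lower signal in preGTS1 stood beside a higher RNA level.

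Other regions were called against GTML3 under DMSO. GTS1 was higher at Col16a1 (3.51, from 2.86 and 1.20 to 38.0 and 27.3 CPM) and Loxl1 (3.25, from 4.0 and 0.0 to 19.5 and 21.1) and lower at Col8a1 (-2.80) and Col2a1 (-2.69), where GTS2 was lower too (-3.09 and -2.14). GTS2 was also lower at Fn1 (-3.52, to 10.1 and 3.02) and Lamb2 (-3.48, from 13.2 and 13.2 to 0.0 and 0.603). In preGTS1 under DMSO both Col8a1 regions were lower (-2.03 and -1.75). The Col19a1 region (chr1:24593258-24593785) had 0.0 and 0.599 CPM in GTML3 under DMSO, 8.76 and 8.15 in GTS1 and 2.53 and 1.21 in GTS2, and the tumor RNA of this gene was higher in GTS. Regions of Thbs2 and Col3a1 held little signal in the treated sources: Thbs2 had 3.43 and 1.20 CPM in GTML3 and 0.887 and 0.129 in preGTS1 under DMSO, and Col3a1 had 0.572 and 0.599, and 0.296 and 0.515, although their RNA differed at least 2600-fold. The Loxl4 region had 4.58 and 5.99 CPM, then 6.19 and 9.67, in GTML3, a difference of 0.49 that did not count as a change.

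Gene by gene, RNA and open chromatin could be set side by side for 34 members. Across these genes the change with DOX in RNA and at the region gave a Pearson r of 0.04 and a Spearman rho of 0.0 in GTML3, with the same sign in 15, and 0.11 and 0.10 in preGTS1, with the same sign in 17. The difference between preGTS1 and GTML3 under DMSO gave 0.42 and 0.51, with the same sign in 23. Genes are not independent replicates, and these values are a description. A gene with several regions was paired with the one nearest its start, which for Thbs3 and Lamb2 held less signal than another. Between the GFP and nonGFP sources 0 of 42 member regions changed, against 0.0606% of all 13208 (0.053% higher and 0.00757% lower), with a median of 0.03 against -0.04. The Col19a1 region had 38.2 and 37.6 CPM in GFP and 32.5 and 29.8 in nonGFP.

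**Figure D5:**
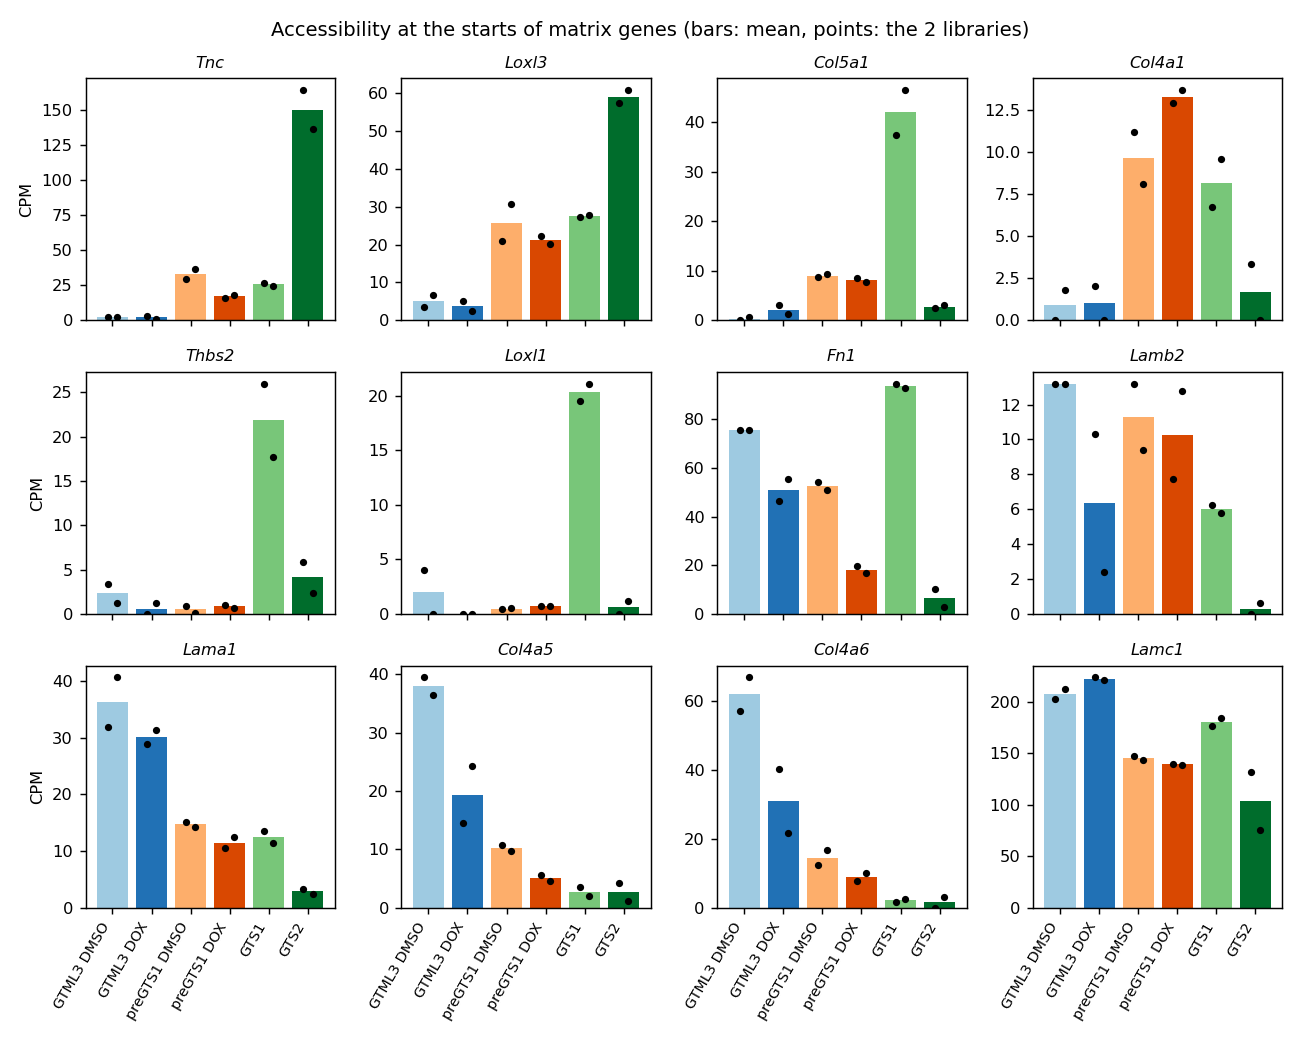
CPM of open chromatin (vertical axis) at the region with most signal within 1 kb of the start of 12 members in 6 sources, with a point for each of 2 libraries and a bar for their mean. Tnc and Loxl3 are highest in GTS2, Col5a1 in GTS1, and Col4a5 and Col4a6 in GTML3 under DMSO.

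In single cells the same genes were sparse. The GTML_SOX9GFP library held 4645 cells with 95810586 UMIs (molecule counts) and a median of 18744 per cell, and the fGTS2 library 4498 cells with 103272381 and a median of 20893.5, and 6 barcodes occurred in both. With 1 library each there is no test, and intervals are exact 95% intervals that cover counting error only. Of 22 members listed in both with at least 20 UMIs in all, 4 were at least 2-fold higher in fGTS2 by CPM (a gene's share of the library's UMIs), 8 lower and 10 between, where 31.2% of all 14552 genes in both passed that fold (9.42% higher and 21.8% lower). The median ratio was 0.647 in the members and 0.825 over all genes.

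Tnc was higher in fGTS2, with 382 UMIs in GTML_SOX9GFP (3.99 CPM, 3.60 to 4.41) and 2478 in fGTS2 (24.0, 23.1 to 25.0), a ratio of 6.02 (5.40 to 6.72). Lamb1 was lower, with 1963 UMIs (20.5 CPM) against 256 (2.48), a ratio of 0.121 (0.106 to 0.138). Lamb2 had 9072 UMIs (94.7 CPM) and 9731 (94.2), a ratio of 0.995 (0.967 to 1.02). Lama5 and Lamc1 lay lower in fGTS2: Lama5 had 1271 and 685 UMIs, a ratio of 0.5 (0.455 to 0.549), and Lamc1 1006 and 613, a ratio of 0.565. Col18a1 had 591 UMIs in GTML_SOX9GFP and 3 in fGTS2, a ratio of 0.00471 (0.000968 to 0.0138). Col25a1, a transmembrane collagen of neurons, had 1015 and 391 UMIs (10.6 and 3.79 CPM), a ratio of 0.357.

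Genes with few UMIs had wide intervals. Higher in fGTS2 were Col15a1 (5 and 34 UMIs, ratio 6.31, 2.45 to 20.7) and Lama2 (3 and 21, 6.49, 1.94 to 34.0). Lower were Fn1 (57 and 8, 0.13, 0.0536 to 0.274) and Sparc (79 and 11, 0.129, 0.062 to 0.244), the opposite order to preGTS1 against GTML3 in bulk RNA. Some members were listed in only 1 library: Col26a1 with 638 UMIs and Col19a1 with 91 in GTML_SOX9GFP, and Col4a1 with 41 in fGTS2. Col1a1, Col1a2 and Col3a1 were listed in neither, and since endothelial Kdr and Cldn5 were not listed in either library, a gene that is not listed is not read as absent.

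Cells bearing at least 2 vessel markers were few, but single markers were widespread. Tek was found in 1811 fGTS2 cells and Egfl7 in 1260 GTML_SOX9GFP cells, so cells with 2 markers are not read as vessel cells. Cells with at least 2 endothelial or at least 2 mural and fibroblast markers numbered 95 in GTML_SOX9GFP (2.05% of cells, with 2.68% of all UMIs) and 313 in fGTS2 (6.96%, with 9.13%), and they held 4.45% and 8.19% of the Tnc UMIs and 3.41% and 10.9% of the Lamb1 UMIs. Endothelial markers summed to 20.5 and 31.4 CPM and mural and fibroblast markers to 3.87 and 5.86, in GTML_SOX9GFP and fGTS2. The endothelial markers did not move together: Tek was higher in fGTS2 (1.69 against 24.2 CPM, there in 1811 cells), and Egfl7 (17.0 against 6.37) and Pecam1 (0.992 against 0.368) were lower. Free RNA in the droplets was not measured, and its part in these low counts was not tested.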

How the data were processed

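Bulk RNA, open chromatin (ATAC-seq) and single-cell RNA were used as deposited. Per the submitters' processing notes, STAR 2.4.0, Bowtie2 2.2, Subread 1.5.2, limma, MACS2, edgeR, Cell Ranger 3.3.0 and Seurat 3.0 were used with builds mm9 and mm10; which of them served which table is not given in the sources used here. The tumor and treated RNA tables hold log2 CPM values made by the authors. The ATAC tables hold CPM per region, normalized by the authors. The single-cell tables hold deposited UMI counts per gene and cell; all deposited cells were kept, and doublets were neither called nor removed. Whole reads were recovered from the treated and ATAC values within a tolerance of 0.1 read. The titles of the treated samples, which equal column names, were followed where their descriptions name the next column.

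RNA was tested on log2 CPM as deposited with limma 3.58.1 (trend and robust variance, R 4.3.3) and Benjamini-Hochberg adjustment over all genes tested at 0.05, for tumors with the number in the column names as a term and for the treated samples with all 4 groups in 1 model. The mean difference between the numbers had been removed from the deposited tumor values (largest coefficient 1.8e-14). edgeR 4.0.16 and DESeq2 1.42.0 on the recovered reads were alternatives. A fold against a group at 0 reads used 3 reads over that group. ATAC differences are on log2(CPM + 1), and 1 line naming no region in each ATAC table was left out. Summed UMI counts were compared as shares of the library (CPM) with exact intervals at 95%. All per-sample columns were used. Summaries were made with Python 3.11.15, pandas 2.3.3 and scipy 1.17.1, and the fits were tested on simulated data.

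Matrix genes named throughout were 16 set genes, the 6 called members with the largest change in each direction of each comparison, the regions with the 4 largest gains and losses, and further members where their class is described. The values of 1 member are not reported here, and counts of members include it. The members and lists were chosen with earlier results of these data known. Alternatives tried were other scalings, filters, pseudocounts, tools, a replicate block and leaving out each library; using only the genes before the change in the tumor table, or only the columns of 1 number, was added after seeing the data.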

Additional observations from a re-analysis of the deposited data

Results flagged for a closer look

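For 15 members the test of the difference between the responses to DOX (limma, adjusted p below 0.05) singled out the pattern, given here as the log2 change in preGTS1 minus that in GTML3. It was above 0 for Col6a3 (3.63), Col9a1 (3.57), Lama1 (3.04), Col12a1 (2.54), Col6a2 (2.47), Thbs1 (2.43), Fn1 (1.52), Col6a1 (1.40), Sparc (1.25) and Lamc1 (1.09). It was below 0 for Loxl4 (-4.14), Col18a1 (-2.15), Col14a1 (-0.87), Col4a3bp (-0.75) and Col7a1 (-0.66). Another 8 members that passed this test were not among the named genes of the comparison.

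In the tumors, a single value stood apart from its group by Dixon's test, which chance alone does in about 1 in 20 groups. The third GTS tumor had the lowest Col1a2, at 4.45 log2 CPM.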

How the results depend on the processing

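In the tumors 1 member was called. Without the term for the column number there were 3, and leaving out a tumor gave 0 to 2, with 0 without the first GTS tumor. Over the genes before the change it was 2, with 6 without the term and 1 to 7 when a tumor was left out (7 without GTS tumor 2, 5 without GTS tumor 3, 3 without GTML tumor 4, and 1 without GTML tumor 3, 7 or 8 or GTS tumor 1, 4, 5 or 6). The calls over all 11184 genes there moved as well, from 485 to 1642 without the term. They were 1224 without GTS tumor 2, 999 without GTS tumor 3, 406 without GTML tumor 4 and 8 without GTS tumor 1. Over all genes of the whole table, 9 calls became 924 without the term. The columns numbered 120 alone, and the others alone, gave 0. The cause was not tested.

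No called difference changed sign. Uncalled ones did as follows. In tumors, Sparc was -0.32, Col1a2 -0.95 and Lamb1 -0.07 without the columns numbered 120, Col1a1 was 0.62 and Col6a1 0.03 in those columns alone, and Col6a1 was 0.10 and Lama4 0.04 after centring, which moves the median gene from -0.07 to 0.03 (and between sources under DMSO from 0.13 to 0.02). When a tumor was left out, Col1a1 ranged from -0.88 to 0.22, Col1a2 from -0.37 to 0.55, Col6a1 from -0.47 to 0.43, Col6a2 from -0.70 to 0.21 and Lama4 from -0.48 to 0.36. When a treated library was left out, GTML3 Tnc ranged from -0.78 to 1.57 and Col4a2 from -0.14 to 0.32, preGTS1 Col4a1 from -0.08 to 0.16, the difference of responses of Col3a1 from -0.25 to 0.88 and of Lamb1 from -0.28 to 0.12, and Thbs1 between sources under DOX from -0.10 to 0.18. By edgeR and DESeq2 that of Col3a1 was -1.24 and -0.46, by DESeq2 that of Lamb1 was 0.02, and Thbs1 was -0.07 after centring.

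Total counts of called members in the treated sources stayed within 1.5 times under every alternative run, but the 3 that fell in preGTS1 were 1 without its first DMSO or first DOX replicate. Leaving out a library gave 28 to 33 in GTML3 (32 with all), 26 to 34 in preGTS1 (33), 20 to 24 for the difference of responses (23), 42 to 45 between sources under DMSO (44) and 43 to 45 under DOX (44). Over all genes it gave 9757 to 10682 in GTML3 (10484 with all) and 10073 to 11088 in preGTS1 (10873). For the difference of responses it gave 5851 to 6871 (6721), and between sources 9827 to 10867 under DMSO (10574) and 10791 to 11510 under DOX (11459). Same-numbered samples did not deviate together (correlations -0.136, -0.0552 and 0.133 in GTML3, and 0.125, -0.381 and -0.137 in preGTS1). With the replicate number as a block the counts were 23 higher and 9 lower, 29 and 3, 17 and 5, 31 and 11, and 34 and 10, and of the named members Col6a1 between sources under DMSO lost its call (0.0621). The labels do not say that the numbers pair samples.

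Changed regions rested on few reads, with 968570 and 827366 in the GTML3 libraries under DOX. In GTML3 the 5 became 9 with a pseudocount of 0.25, 10 to 12 when a library was left out, 0 by limma and 0 by limma with the replicate block. In preGTS1 the 2 became 4 with a pseudocount of 0.25, 1 by limma and 1 with the replicate block. Between GFP and nonGFP the 0 became 1 without the second nonGFP library, and the 12 of single cells became 7 with at least 100 UMIs. The matching counts over all regions or genes are not given here, so these are not read as particular to the members. A gene with under 10 reads in a group, such as Tnc and Thbs2 in GTML3, has no precise fold.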
